A study of Mus musculus with 45 samples.

Results

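The region described here is mouse chromosome 11 from its first probe, at chr11:3100146 in the mm8 build, through chr11:105728608, and most of the gain that recurs in MMTV-Myc tumors lies beyond it. Its members were the array probes that start at or before that last position, without the 21 probes of 9 cancer gene names that were left out of the rule (Trp53, Brca1, Brip1, Egfr, Erbb2, Grb7, Nf1, Stat5a and Stat5b). This gave 2443 members among the 42235 probes of the autosomes and the X chromosome, against 515 probes on the distal side of the same chromosome. The members carried 1299 gene names, 284 probes were named by position alone, neighbouring probes lay 17.6 kb apart in the median, and the largest interval without a probe was 3.80 Mb.

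Array comparative genomic hybridization measures DNA dose: tumor and reference DNA are labeled with different dyes and hybridised to the same spots, and a log2 ratio of 0 stands for equal dose. It was carried out on 45 invasive primary mammary tumors of female mice from 8 genetically engineered models, with 1 array a tumor and pooled spleen DNA as the reference. The models were MMTV-Myc with 5 tumors, MMTV-PyMT with 9, MMTV-Her2/neu with 5, MMTV-HRas with 5, MMTV-Wnt1 with 5, C3(1)-Tag (C3(1)/SV40 T/t-antigens) with 5, BRCA1-/-;p53+/- (BRCA1fl/fl;p53+/-;MMTV-cre, the Brca1 model below) with 5, and p53-/- (p53fl/fl;MMTV-cre, transplanted) with 6. The MMTV promoter drives its transgene or Cre mainly in mammary epithelium, so DNA of stromal and blood cells in a tumor carries no copy change of the tumor cells and draws ratios toward 0. The labels give no ages, and where nothing says that tumors came from different mice, p-values measure the spread between tumors.

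Mouse chromosome 11 holds the counterpart of human chromosome 17, beside stretches of several other human chromosomes. In breast cancer the long arm of the human chromosome is known for gains, among them the ERBB2 neighbourhood and a further stretch around PPM1D, RPS6KB1 and the microRNA miR-21, and the short arm for losses. On the mouse chromosome the counterparts of the short arm mostly lie proximal to those of the long arm.

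Labels were checked first. The Brca1 probe at chr11:101340828-101340887 carried a log2 ratio of -3.97 ± 1.40 (SD, n = 5) in the Brca1 model, from -5.14 to -1.69, against 0.06 in the other 40 tumors. The Wnt1 probe on chromosome 15 lay at 1.07 to 1.497 in 4 of the 5 MMTV-Wnt1 tumors and at 0.07 in the tumor labelled Wnt_4635. In p53-/- the 2 Trp53 probes, chr11:69396256-69396315 and chr11:69399814-69399873, lay at -0.10 ± 0.46 and -0.28 ± 0.22 (SD, n = 6), against -0.10 and -0.05 in the other 39 tumors, and P53_2979 lay at 0.58 and -0.24. These probes show no clear deletion, and whether they lie in the deleted part of the gene is not given in the sources used here. The genome profiles of C3TAg_5RPT and H2N53, and of C3TAg_7RPT and H2N61, correlated at r = 0.960 and 0.928 over 2058 bins although their labels name different models, against at most 0.825 for any other pair of different models. Over the 91 bins of the region r was 0.410 and 0.0479. Because of these labels, regional means, bins and gene names were also fitted without these 4 arrays, for gene names as a setting added after the data were seen. Every direction below is Cy3 over Cy5 as tumor over reference, which opposes the dyes in the labels: of 691 intervals that the authors called with at least 3 probes and 0.2 in size, 676 had this sign. With the dyes as labelled every sign turns.

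The copy state of a gene on this chromosome also applies to the microRNAs beside it, and those at the places where the results turn are shown by mature sequence (RefSeq, GRCm38.p6), 5′ to 3′, with the seed, bases 2 to 8, in capitals. miR-146a lies between Gabrb2 and Pttg1 (chr11:42265040-43268350), inside the stretch most often lost in the Brca1 model. miR-132, miR-212 (between Hic1 and Ovca2, chr11:74980761-74993845) and miR-22 (between Serpinf2 and Prpf8, chr11:75249507-75316735) lie distal to the steps that end these losses, closest to that of Brcap53_682. miR-21a, within Tmem49 (chr11:86382009-86508517), and miR-301a (beside Prr11 and Trim37, chr11:86906030-87036779) lie in the stretch of highest level in the MMTV-PyMT tumor PyMt 3.
mmu-miR-146a-5p: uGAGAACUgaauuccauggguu
mmu-miR-132-3p: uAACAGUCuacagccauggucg
mmu-miR-212-3p: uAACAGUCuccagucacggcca
mmu-miR-22-3p: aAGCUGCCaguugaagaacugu
mmu-miR-21a-5p: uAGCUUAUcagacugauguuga
mmu-miR-301a-3p: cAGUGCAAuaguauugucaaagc
miR-132-3p and miR-212-3p share their seed, and the other 4 differ from them and from each other. Positions are those of the flanking genes' probes in mm8, since the order of genes came from the later build.

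Over the whole region, MMTV-PyMT stood above the other models. The mean log2 ratio of the region was 0.42 in PyMt 3, 0.40 in PyMt341 and 0.47 in PyMt342, which were the 3 highest of the 45 tumors. It was 0.14 in PyMT_11570, and between -0.01 and 0.01 in the other 5 MMTV-PyMT tumors. The model therefore held 3 tumors with the region gained and 6 without, and these 6 overlapped the range of the other models, -0.30 to 0.16. Its mean was 0.16 ± 0.21 (SD, n = 9) against -0.05 ± 0.12 in the other 36 tumors, a difference of 0.21 (two-sided exact permutation test, p = 0.000469, 0.00375 after Benjamini-Hochberg adjustment over the 8 models), and 9 of 9 tumors lay above the median of the others. Leaving out each tumor in turn kept the difference between 0.17 and 0.23, with adjusted exact p between 0.00256 and 0.0226. Within slides, which hold up to 4 arrays, it was 0.18 with an adjusted exact permutation p of 0.0868, and within scan dates 0.21 with an adjusted exact permutation p of 0.0900, so it did not pass the threshold there. On the slides that hold MMTV-PyMT tumors, pooled, it was 0.18 with an adjusted exact permutation p of 0.0475. Without the 4 arrays of doubtful label it was 0.17 there, with an adjusted exact permutation p of 0.149, and did not pass.

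The other models had smaller differences from the rest, none of which passed the exact permutation test (adjusted p of 0.456 or more). The mean of the region was 0.06 ± 0.07 (SD, n = 5) in MMTV-Myc, -0.11 ± 0.09 (n = 5) in MMTV-Her2/neu and -0.08 ± 0.10 (n = 5) in MMTV-HRas. It was -0.09 ± 0.13 (n = 5) in C3(1)-Tag, -0.02 ± 0.07 (n = 5) in the Brca1 model and -0.08 ± 0.19 (n = 6) in p53-/-. MMTV-Wnt1 lay at -0.0030 ± 0.047 (n = 5), a difference of 0.0030 that changed sign, to -0.014, without Wnt_4635. Over all arrays of the slides that hold an MMTV-Her2/neu tumor, this model lay 0.22 below the other models, with an adjusted exact p of 0.0475 over the 5 models that share a slide with another. H2N64 is among its 5 tumors there although its slide held no other array of these 45. The difference did not pass within slides, at -0.25 with an adjusted exact permutation p of 0.0868, nor within scan dates, at -0.12 with 0.442, nor on its slides without the 4 arrays of doubtful label, at -0.22 with 0.149. Without these arrays the mean was -0.13 ± 0.11 (n = 3) in MMTV-Her2/neu, a difference of -0.14, and -0.09 ± 0.18 (n = 3) in C3(1)-Tag, a difference of -0.10, with adjusted exact p of 0.465 and 0.489. For the Brca1 model, MMTV-HRas and p53-/-, every slide held that model alone, and slide and model cannot be told apart.

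**Figure D1:**
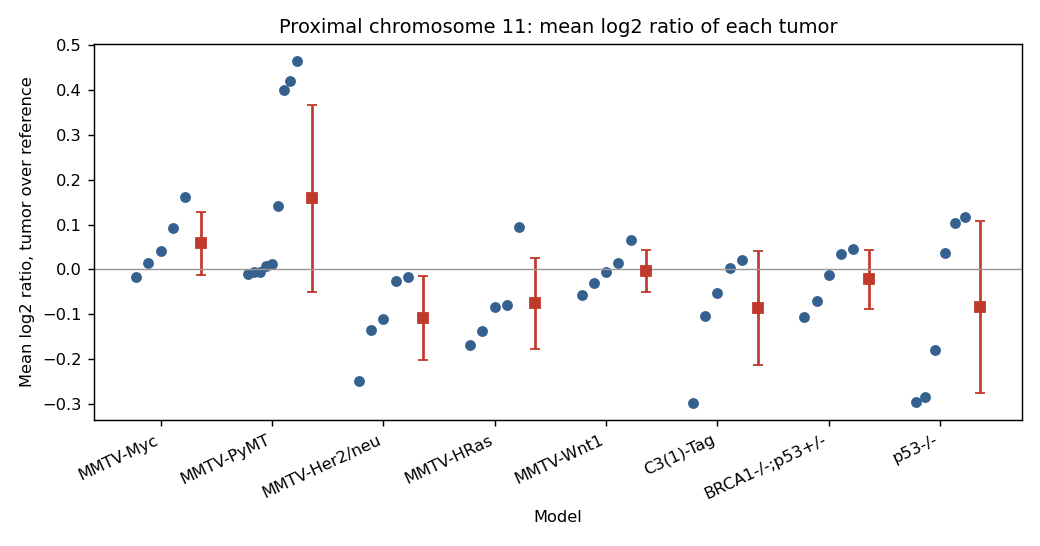
Mean log2 ratio of proximal chromosome 11 (vertical axis, tumor over reference) in each of the 45 tumors (blue points, ordered by value within a model) by model (horizontal axis), with the mean and SD of each model (red squares and bars). PyMt 3, PyMt341 and PyMt342 sit between 0.40 and 0.47, above every other tumor, and the Brca1 model sits near 0.

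A tumor was counted as gained or lost where at least 50% of the probes lay in segments (stretches of one level found by circular binary segmentation) with a mean of at least 0.2 or at most -0.2. By this count 3 tumors had the region gained, 6 had it lost and 36 neither. The gains were PyMt 3, PyMt341 and PyMt342, 3 of 9 MMTV-PyMT tumors (33.3%, exact Clopper-Pearson 95% interval 7.49 to 70.1%). The losses spanned 4 models: Brcap53_503 and Brcap53_682 of the Brca1 model, C3TAg_8_RPT at a regional mean of -0.30, H2NA at -0.25, and the p53-/- tumors P53_1573 at -0.28 and P53_8546 at -0.30. These counts used ratios as they stood. With isolated probes clipped before segmenting, a setting added after the data were seen, Brca_54 was lost as well. Its share of lost probes was then 53.4%, against 44.8% without clipping. Over the other autosomes, the number of tumors gained ranged from 1 to 13 with a median of 5, and the number lost from 0 to 13 with a median of 3.5, so that 13 autosomes had more gained tumors and 4 more lost ones. At a threshold of 0.3 in place of 0.2 there was 1 loss, Brcap53_682, and the 3 gains stood. With the deposited intervals in place of these segments, 7 tumors were gained and 4 lost, and the sets differed. The gained ones were PyMt 3, PyMt341, PyMt342, C Myc_04004022, C3TAg_5RPT, Wnt_4635 and Brca_14, and the lost ones Brcap53_503, Brcap53_682, H2NA and H2N53, so that C3TAg_8_RPT, P53_1573 and P53_8546 were not lost by this count. C3TAg_5RPT, of doubtful label, had 99.96% of probes in gained intervals, against a regional mean of -0.10 and no gained segment here.

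In the 3 gained MMTV-PyMT tumors the gain did not stop at the limit of the region. The mean log2 ratio of the distal probes was 0.39 in PyMt 3, 0.37 in PyMt341 and 0.46 in PyMt342, close to the proximal means. Gains on the other autosomes covered 13.0% of probes in PyMt 3, 8.16% in PyMt341 and 0.33% in PyMt342, the last being the tumor with the highest level of chromosome 11. PyMT_11570 was different, with 0.14 proximal and 0.39 distal, and its single-probe noise SD of 0.44 was among the highest. These 4 arrays lay on 4 different slides. On the slide of PyMt342, C Myc_04004021 lay at -0.02 and H2N53, of doubtful label, at -0.14. On that of PyMt341, C Myc_043508 lay at 0.09, C3TAg4 at 0.0023 and H2N1 at -0.11. PyMt 4 1, on the slide of PyMt 3, lay at -0.01. On that of PyMT_11570, PyMT_11567 lay at 0.01 and Wnt_4679 at -0.06.

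PyMt 3 had a further step within its gain. From chr11:84833994 to chr11:87431882, over 67 probes and 36 gene names, the segment mean was 0.62, against 0.42 on the proximal and 0.39 on the distal side. The steps lay within BC058994 and between Mtmr4 and Hsf5. This stretch holds the PPM1D and RPS6KB1 group of genes, and values in PyMt 3 were 0.89 for Tbx2, a T-box repressor of senescence genes, 0.74 for Bcas3, 0.71 for Trim37, a ubiquitin ligase, 0.63 for Rad51c, a recombination protein, 0.44 for Appbp2, 0.41 for Rps6kb1, the S6 kinase, and 0.28 for Ppm1d, a phosphatase that acts on p53. Each rests on 1 or 2 probes and spreads around the segment mean. miR-21a and miR-301a, whose sequences are given above, lie in the same stretch. Within it, PyMt342 had -0.38 over 6 probes from chr11:85126410 to chr11:85657343 without clipping. With isolated probes clipped, PyMt342 had 1 segment over the whole chromosome.

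**Figure D2:**
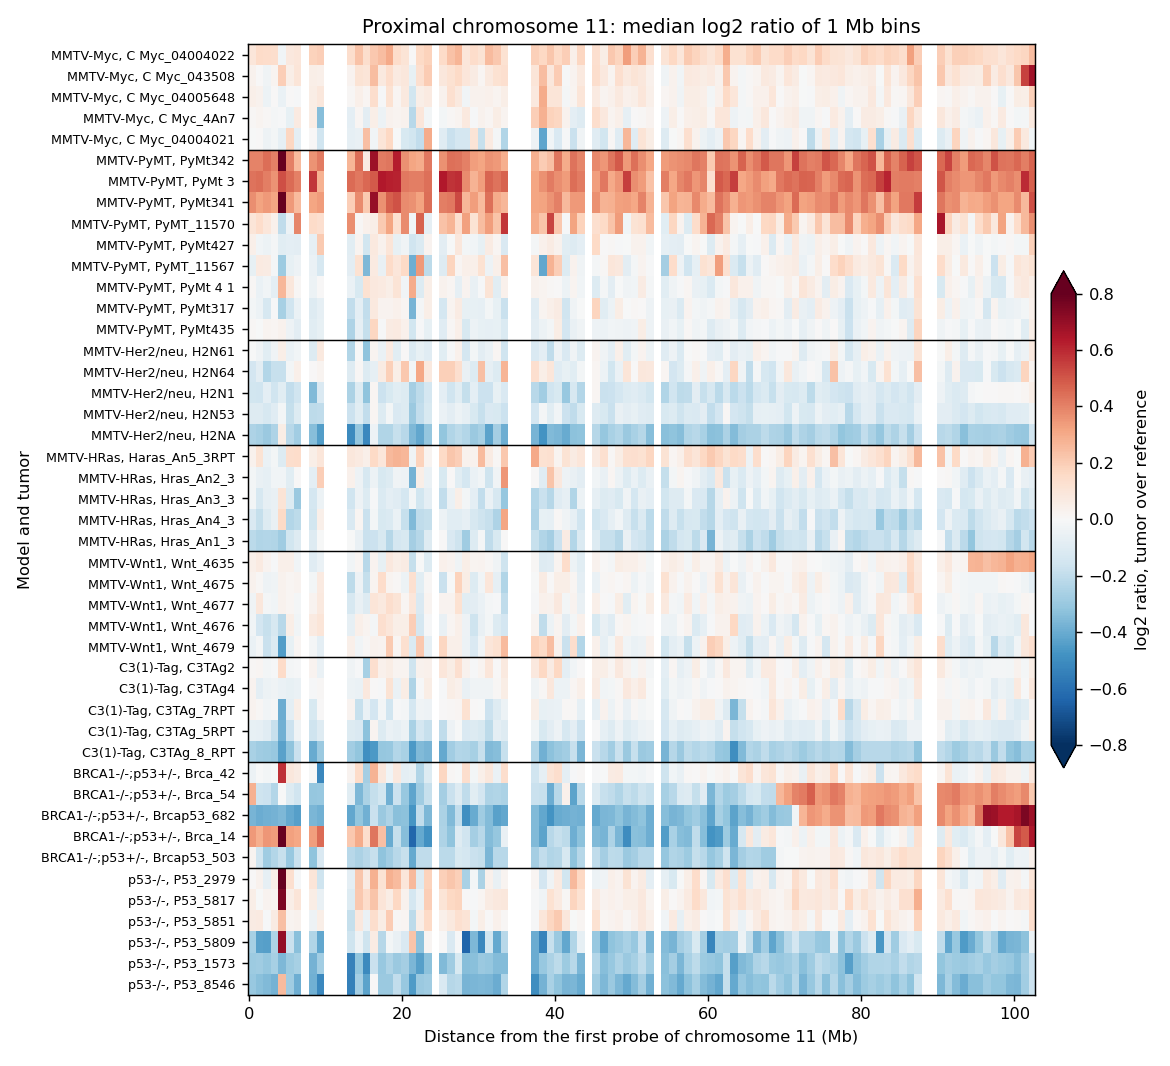
Median log2 ratio of 1 Mb bins (color, red for higher and blue for lower in the tumor, clipped at -0.8 and 0.8) by distance from the first probe of chromosome 11 in Mb (horizontal axis) in each of the 45 tumors (rows, grouped by model and ordered by mean). White columns are bins with fewer than 3 probes. PyMt342, PyMt 3 and PyMt341 are red along the whole axis, and 4 of the 5 Brca1 model tumors turn from blue to a higher level.

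The same was seen bin by bin. The region held 91 of the 2058 autosomal bins of 1 Mb, and limma, fitted on all bins with 1 coefficient a model and Benjamini-Hochberg adjustment over all of them, called 34 of the 91 higher in MMTV-PyMT at an adjusted p under 0.05 (37.4%), against 2.53% of all autosomal bins. All 91 estimates were above 0, between 0.13 and 0.30 with a median of 0.20, and 86 had an unadjusted p under 0.05. The bin with the largest t, chr11:64000001-65000000, had a difference of 0.30 ± 0.06 (SE, limma adjusted p = 0.0252). Its values were 0.49 in PyMt 3, 0.43 in PyMt341, 0.44 in PyMt342, 0.40 in PyMT_11570 and 0.34 in PyMT_11567, and between -0.06 and 0.04 in the other 4, while the other 36 tumors reached at most 0.17. PyMT_11570 and PyMT_11567 had regional means of 0.14 and 0.01, no gained segment, and single-probe noise SDs of 0.44 and 0.47. These calls rest on few tumors: without PyMt 3 or PyMt341 limma called 1 bin of the region, without PyMt342 or PyMT_11570 it called 0, and without H2N64 it called 54. With slide or scan date as a fixed block limma called 0 of the 91 bins, while 26 and 63 of them had an unadjusted p under 0.05. With slide as a random block it called 34, against 2.53% of all bins. The slide correlation estimated for that fit was -0.00305, so it barely differs from the fit without slides and checks little. Without the 4 arrays of doubtful label limma called 21 (23.1%, against 1.31% of all bins). The count was 17 under normexp background correction (18.7%, against 1.70%) and 6 with array weights (6.59%, against 4.03%).

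Of the 98 entries of 7 gene lists (Cdc6 and Top2a stand in 2 lists each), 89 had a probe in the region. By gene name, limma called 83 of 1269 names of the region higher in MMTV-PyMT, against 0.514% of all 19662 names, and 2 of the 89 list entries. Both were cytokines of the Th2 cluster near 54 Mb. Il13 had 0.34 in PyMt 3, 0.54 in PyMt341, 0.47 in PyMt342, 0.33 in PyMT_11570, 0.56 in PyMT_11567 and 0.04 to 0.13 in the other 4 tumors, a difference of 0.42 ± 0.09 (SE, limma adjusted p = 0.0191). Of these, PyMT_11570 and PyMT_11567 had no gained segment and high single-probe noise. Il3 had a difference of 0.31 ± 0.08 (SE, limma adjusted p = 0.0488), and its adjusted p was 0.0814 with the slide as a random block and 0.0690 without the 4 arrays of doubtful label. With array weights the difference was 0.24 for Il13 (adjusted p = 0.0243) and 0.09 for Il3 (adjusted p = 0.507). The number of names of the region called higher was 34 with the slide as a random block (2.68%, against 0.203% of all names), 39 without the 4 arrays (3.07%, against 0.214%) and 122 with array weights (9.61%, against 3.26%). With slide as a fixed block limma called 0, 310 having an unadjusted p under 0.05. These are DNA doses, measured by 1 probe each, and not transcript levels.

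The list medians of MMTV-PyMT differences lay close to each other. The tumor suppressors and DNA repair genes had a median difference of 0.16 with 12 of 12 above 0, the proto-oncogenes and genes of human amplicons 0.19 with 21 of 23, and the cytokines and chemokines 0.17 with 14 of 14. The chromatin and transcription factors had 0.19 with 15 of 16, the mammary epithelial genes 0.15 with 8 of 9, the receptors, ligands and signalling genes 0.17 with 10 of 11, and the cell division genes 0.12 with 3 of 4. The median was 0.20 over all names of the region and 0.01 over all autosomal names. Rps6kb1, at a difference of 0.30 ± 0.09 (SE, limma adjusted p = 0.0947), and Suz12, a Polycomb subunit, at 0.35 ± 0.10 (SE, limma adjusted p = 0.0677), were not called.

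In the Brca1 model, whose regional mean was near 0, 4 of 5 tumors held stretches of different level divided by steps. The levels and steps given here are those of segments found after isolated probes were clipped, a setting added after the data were seen. Brcap53_503 had 0.02 up to chr11:4262780, then -0.24 from chr11:4294893 to chr11:72226147 over 1271 probes, 0.07 to chr11:96601898, and -0.02 from chr11:96612453 through the distal end. Brcap53_682 had -0.34 from the first probe to chr11:74648789 over 1412 probes, then 0.33 to chr11:98649919, and 0.68 from chr11:98701033 through the distal end. Its second step lay between Casc3 and Wipf2, so that the keratin type I cluster and Stat3 lay in the higher of its gained stretches.

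Brca_54 carried 0.45 over its first 26 probes, up to chr11:3590389, then -0.22 over 1304 probes to chr11:72258806, and 0.35 from chr11:72267061 through the distal end. Brca_14 carried 0.32 up to chr11:21050198, then -0.32 over 868 probes from chr11:21118997 to chr11:67124837, then -0.03 to chr11:102218655, and 0.52 from chr11:102222301. Brca_42 had 1 segment over the whole chromosome in this setting. Without clipping 11 segments touched the region, of which the 5 longest lay between -0.01 and 0.06. With ratios centred on the autosomal median, the 4 tumors with steps thus shared a lower level over the middle of the chromosome and differed in its ends. In the deposited intervals this stretch was lost in only 2 of them: 52.0% of the region's probes lay in lost intervals in Brcap53_503 and 58.1% in Brcap53_682, against 0.45% in Brca_14 and 0.20% in Brca_54, where 64.1% and 46.5% lay in gained ones. The mean of those intervals, with 0 outside them, was 0.0063 over the lower stretch and 0.23 over the next 20 Mb in Brca_14, and 0.0074 and 0.62 in Brca_54, so that a step up was present there without a loss before it. Centring at the density peak left the lower stretch at -0.35 in Brca_14 and -0.23 in Brca_54.

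The distal ends of the losses lay close together in 2 of them. That of Brcap53_503 fell between the probes of D130058I21Rik and Ggt6 and that of Brca_54 within Mybbp1a, a Myb-binding nucleolar protein gene, 9.498 to 40.9 kb apart. That of Brcap53_682 lay within Mnt, which encodes a Max partner that opposes Myc, at chr11:74648789-74660513. That of Brca_14 lay between Myh8 and AF336977, at chr11:67124837-67150872. The proximal ends differed, between Peli1 and Vps54 in Brca_14, between Morc2a and Osbp2 in Brca_54, within Hormad2 in Brcap53_503, and before the first probe in Brcap53_682.

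**Figure D3:**
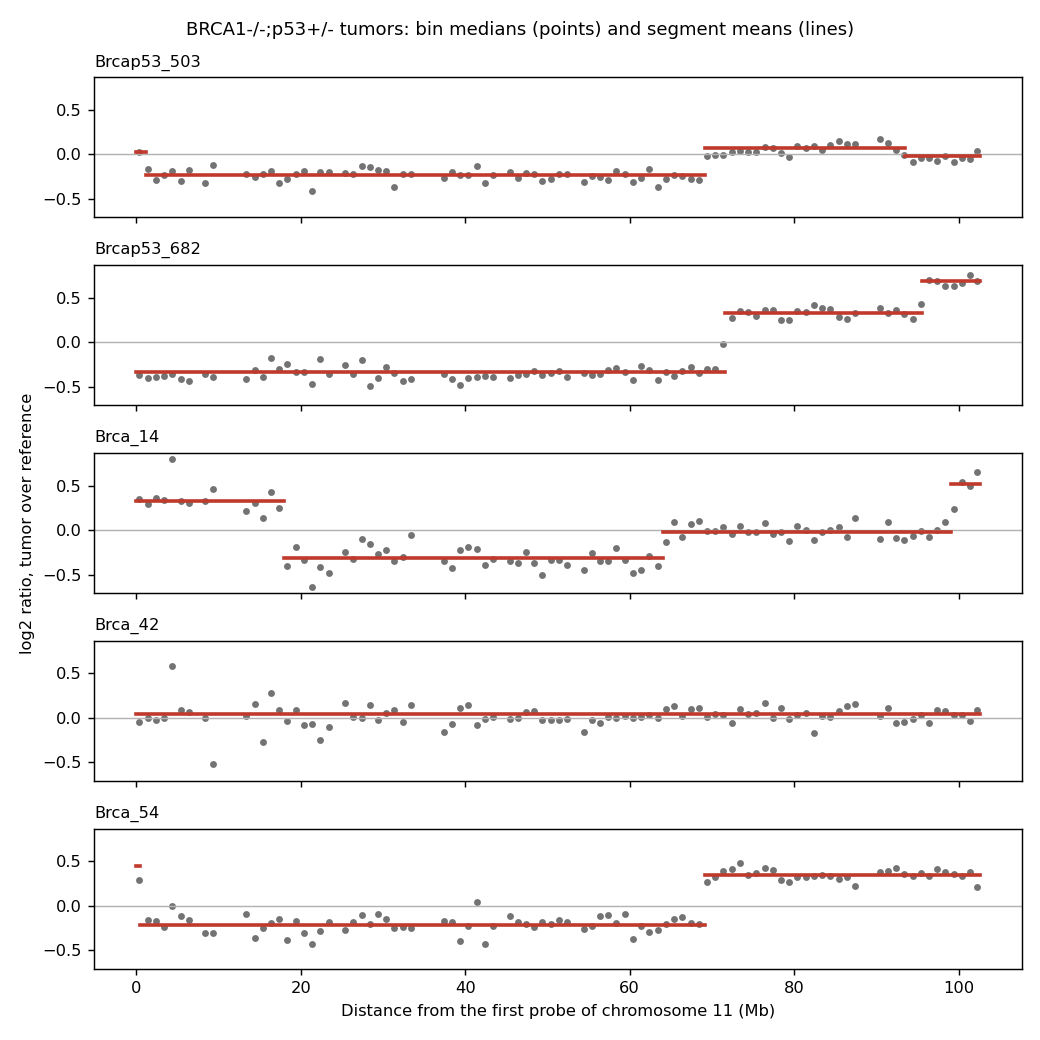
Log2 ratio (vertical axis, tumor over reference) by distance from the first probe of chromosome 11 in Mb (horizontal axis) in the 5 BRCA1-/-;p53+/- tumors, 1 panel each. Points are medians of 1 Mb bins and lines are segment means, with isolated probes clipped before segmenting. The lines step up from -0.24 to 0.07, from -0.34 to 0.33, from -0.32 to -0.03 and from -0.22 to 0.35 in the 4 tumors with steps, and stay at 1 level in Brca_42.

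Counted by bins, on segments found without clipping, losses were present in at least 4 of the 5 tumors over 35 bins. They were present in at least 3 over 55 bins. The longest run of the 35 went from chr11:31000001 to chr11:63000000. With isolated probes clipped, the 4 tumors with steps lay at -0.2 or lower from chr11:21118997 to chr11:67124837. The ends of that run thus depended on clipping. On the unclipped segments, gains were present in at least 3 tumors over the last 3 bins, chr11:103000001-105728608. They were present in at least 2 over 30 bins, 29 of them from chr11:75000001 on and 1 at chr11:3000001-4000000. Limma called 1 bin higher, against 0.34% of all bins, and 1 lower, against 1.99%, while 54 of the 91 had an unadjusted p under 0.05. The higher one was chr11:103000001-104000000, with values of 0.66 in Brcap53_682, 0.54 in Brca_14, 0.33 in Brca_54, 0.04 in Brca_42 and -0.04 in Brcap53_503, a difference of 0.33 ± 0.09 (SE, limma adjusted p = 0.0364). The lower one was chr11:21000001-22000000, with -0.40 in Brca_14, -0.38 in Brca_54, -0.28 in Brcap53_503, -0.24 in Brcap53_682 and -0.03 in Brca_42, a difference of -0.32 ± 0.09 (SE, limma adjusted p = 0.0364). Both ranges overlapped that of the other 40 tumors. The number of bins called in the region went from 2 to 0 under centring at the density peak, normexp background correction, 2 Mb bins or array weights, and ranged from 0 to 9 when single tumors were left out.

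By gene name, limma called 61 of the 1269 names of the region higher in the Brca1 model, against 2.32% of all names, and 77 lower, against 2.88%, and of the 89 list entries 8 higher and 3 lower. The names called higher and lower numbered 34 and 36 with the slide as a random block (2.68% and 2.84%, against 1.24% and 1.480% of all names) and 52 and 48 without the 4 arrays of doubtful label (4.10% and 3.78%, against 1.82% and 2.29%). With array weights they numbered 10 and 32, and the share higher, 0.788%, was below the 1.05% of all names, while 2.52% were lower against 1.17%. The 3 lower ones were Bcl11a and Xbp1 on the proximal side and Ccl3 at 83 Mb. Bcl11a, a zinc-finger repressor gene active in mammary progenitors, had -0.74 in Brca_14, -0.34 in Brca_42, -0.35 in Brca_54, -0.35 in Brcap53_503 and -0.38 in Brcap53_682, a difference of -0.39 ± 0.11 (SE, limma adjusted p = 0.0314). It rests on 2 probes, and the value in Brca_42 lay below the single segment of that tumor, at 0.04. Xbp1, a factor of the unfolded protein response, had a difference of -0.44 ± 0.13 (SE, limma adjusted p = 0.0356). Ccl3, a macrophage chemokine, had -2.04 in Brca_42, a tumor without a step, and 0.40 in Brcap53_682. With the slide as a random block the adjusted p was 0.0663 for Bcl11a, 0.0890 for Xbp1 and 0.108 for Ccl3, and with array weights 0.0824, 0.0957 and 0.0866. Without the 4 arrays of doubtful label it was 0.0491, 0.0561 and 0.0627.

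The entries called higher lay between 85 and 104 Mb. Becn1, an autophagy gene that neighbours Brca1, had 1.02 in Brcap53_682, 0.64 in Brca_54, 0.29 in Brcap53_503, 0.19 in Brca_14 and 0.11 in Brca_42, a difference of 0.51 ± 0.13 (SE, limma adjusted p = 0.0138). Etv4, an ETS factor, had a difference of 0.43 ± 0.10 (SE, limma adjusted p = 0.00882), Hoxb7 0.56 ± 0.11 (SE, adjusted p = 0.00177), and Hdac5, a histone deacetylase, 0.41 ± 0.11 (SE, adjusted p = 0.0199). Cdc6, which loads the replicative helicase and counts in 2 lists, had 0.40 ± 0.11 (SE, limma adjusted p = 0.0196), with 0.98 in Brcap53_682, 0.47 in Brca_54 and at most 0.10 in the other 3. Ppm1d, at 0.40 ± 0.11 (SE, limma adjusted p = 0.0310), and Wnt3, at 0.41 ± 0.13 (SE, adjusted p = 0.0461), lost their call with the slide as a random block, at adjusted p of 0.0586 and 0.0837. With array weights the adjusted p was 0.0641 for Becn1, 0.0757 for Etv4, 0.112 for Hdac5, 0.118 for Cdc6, 0.0705 for Ppm1d and 0.233 for Wnt3, so that of the 8 entries Hoxb7 alone stayed called, at 0.00468. Without the 4 arrays Wnt3 lost its call, at 0.0664. Top2a, beside Cdc6, had a difference of 0.23 ± 0.15 (SE, limma adjusted p = 0.392).

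**Figure D4:**
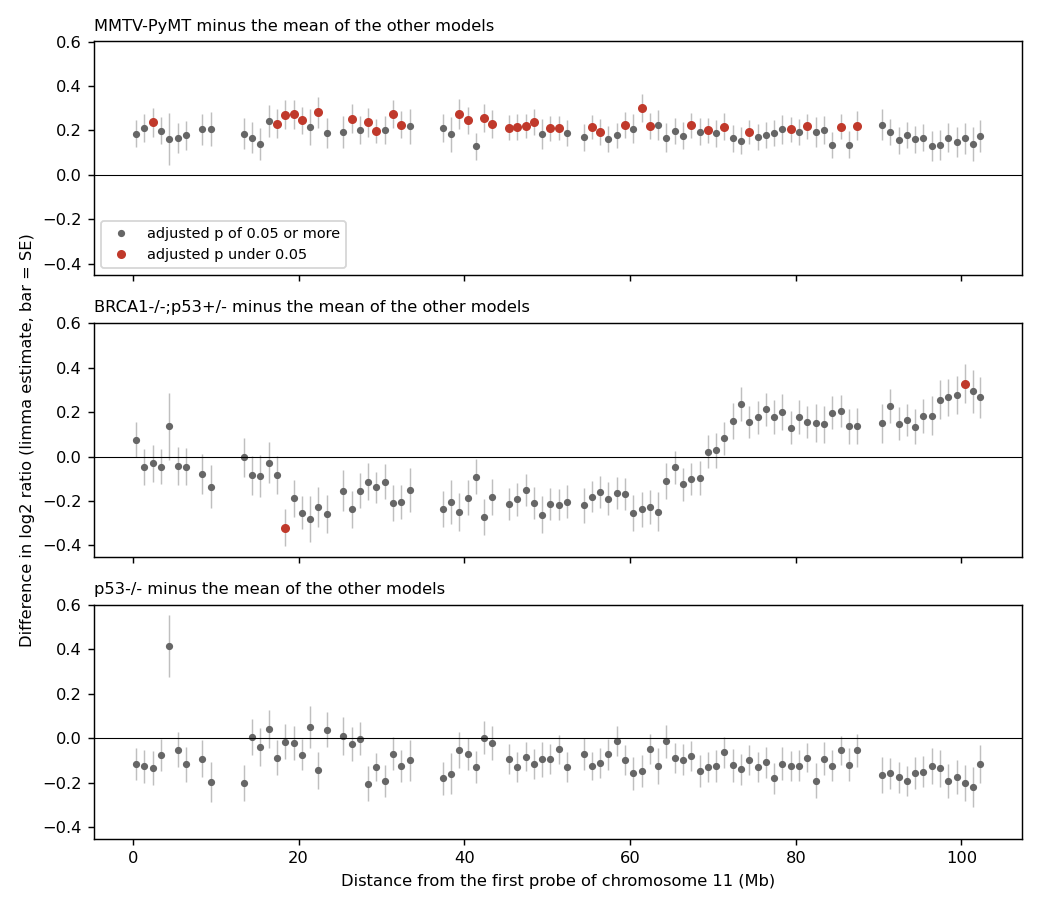
Difference in log2 ratio between a model and the mean of the other models (vertical axis, limma estimate with its SE as the bar) for each 1 Mb bin by distance from the first probe of chromosome 11 in Mb (horizontal axis), for MMTV-PyMT, BRCA1-/-;p53+/- and p53-/-. Red points have an adjusted p under 0.05. MMTV-PyMT lies between 0.13 and 0.30 in every bin, the Brca1 model runs from below 0 to 0.33, and p53-/- has no red point.

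The p53-/- tumors were split. The mean of the region was -0.28 in P53_1573, -0.30 in P53_8546 and -0.18 in P53_5809, and 0.12, 0.10 and 0.04 in P53_2979, P53_5817 and P53_5851. No bin of the region was called, against 7.09% of all autosomal bins in either direction, and 22 of the 91 had an unadjusted p under 0.05 in limma. By name, limma called 31 of 1269 higher, against 9.07% of all names, and 180 lower, against 7.58%, and 3 and 12 of the 89 list entries. The 12 included Ncor1, a nuclear receptor corepressor, with -0.68 in P53_5809, -0.43 in P53_8546, -0.35 in P53_2979, -0.28 in P53_1573, -0.08 in P53_5817 and -0.05 in P53_5851, a difference of -0.29 ± 0.08 (SE, limma adjusted p = 0.00957). Differences were also negative for Lasp1, an actin-binding protein gene of the ERBB2 stretch, at -0.42 ± 0.10 (SE, limma adjusted p = 0.00378), Hoxb7 at -0.51 ± 0.11 (SE, adjusted p = 0.000946) and Etv4 at -0.34 ± 0.10 (SE, adjusted p = 0.0125). Nme1, a nucleoside diphosphate kinase gene, ranged from -2.01 in P53_1573 to 0.55 in P53_2979 and had the lowest difference of the 12, at -0.97 ± 0.30 (SE, limma adjusted p = 0.0223), and stayed called with array weights, at 0.00713. With the slide as a random block 6 of the 12 lost their call, Nme1 at 0.0533, Ccr7 at 0.0545, Ppm1d at 0.0825, Crk at 0.0844, Rad51d at 0.0907 and Becn1 at 0.0927. With array weights 11 of the 12 lost their call, all but Nme1, and adjusted p reached 0.497, for Becn1. The values were then -0.18 for Ncor1 (adjusted p = 0.207), -0.26 for Lasp1 (0.134), -0.37 for Hoxb7 (0.0512) and -0.23 for Etv4 (0.205), and limma called 7 names of the region higher (0.552%, against 3.27% of all names) and 19 lower (1.497%, against 3.87%), where the share lower without weights was 14.2% against 7.58%.

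The 3 list entries higher in p53-/- were Igfbp1, Xpo1, the nuclear export receptor, and Il12b. Igfbp1, an insulin-like growth factor binding protein gene with 1 probe, had 3.34 in P53_2979 and 0.77 in P53_5851, the extremes of the 6, and a difference of 2.01 ± 0.43 (SE, limma adjusted p = 0.00124). Its probe also departed from its neighbours by more than 1 in log2 ratio in at least 10 tumors, and both it and a probe of Il12b were among the 24 probes of the region that did so. Xpo1 and Il12b lost their call with the slide as a random block, at adjusted p of 0.0629 and 0.0558, and 11 names of the region were then called higher (0.867%, against 5.47% of all names) and 89 lower (7.01%, against 4.31%). With array weights Xpo1 and Il12b also lost their call, at 0.0988 and 0.0991, and Igfbp1 kept it, at 0.0134. Without the 4 arrays of doubtful label limma called 16 higher (1.26%, against 6.998% of all names) and 115 lower (9.06%, against 5.89%).

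MMTV-Myc, whose recurrent gain lies mostly beyond this region, had 0 of 91 bins called by limma, against 0.437% of all bins, with 13 at an unadjusted p under 0.05. With array weights 46 bins (50.5%) were called higher, against 13.4% of all bins in that setting. The distal mean was 1.26 in C Myc_04004021, 0.88 in C Myc_04005648, 0.76 in C Myc_043508, 0.38 in C Myc_04004022 and 0.05 in C Myc_4An7, while the proximal means were -0.02, 0.04, 0.09, 0.16 and 0.02 in the same order. With isolated probes clipped before segmenting, the profile of C Myc_043508 held 2 narrow gains ahead of the main one. The first, chr11:97834724-98081716, had a mean of 0.42 over 13 probes and held Rpl19, Stac2, Fbxl20, Pparbp (Med1, a Mediator subunit) and Crkrs (the kinase CDK12). The second, chr11:99097550-99396207, had a mean of 0.49 over 18 probes and held Krt25, Krt27, Krt10, Krt20, Krt23 and Krt39 of the type I keratin cluster. The stretch between them, at 0.06 over 55 probes, held Stard3, Cdc6, Top2a and Igfbp4, and the main gain began within Nsf at chr11:103742302-103767005, at 0.68. Without clipping both narrow gains stood at the same places, the main gain began at 0.52, and a stretch from chr11:89109265 to chr11:94149210 lay at 0.25 over 56 probes.

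The tumor labelled Wnt_4635 had a narrow gain at nearly the same place, in segments found after isolated probes were clipped. Its level was 0.02 up to chr11:97058103, 0.25 from chr11:97095358, within Npepps, 0.82 over the 9 probes of chr11:97823323-97927055, and 0.28 beyond. In the deposited intervals 100% of the region's probes were gained in this tumor, which goes against the level of 0.02. The 9 probes carried the names Cacnb1, Rpl19, Stac2 and Fbxl20, which are also in the first narrow gain of C Myc_043508, and their proximal limits lay 0.059 to 28.9 kb apart. It was the 1 segment under 3 Mb with a mean of at least 0.8 in size that remained after isolated probes were clipped. MMTV-Wnt1 had 0 of 91 bins called by limma, against 0.0486% of all bins, with 1 at an unadjusted p under 0.05.

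MMTV-HRas had 0 of 91 bins called, against 17.8% of all autosomal bins, and 3 of 91 with an unadjusted p under 0.05 in limma. By name, 9 of 1269 were lower, against 1.69% of all names, and of the list entries these were Nme2, a nucleoside diphosphate kinase, at -0.50 ± 0.13 (SE, limma adjusted p = 0.0293), and Il13 at -0.38 ± 0.11 (SE, adjusted p = 0.0405). With the slide as a random block 0 names of the region were called, 50 having an unadjusted p under 0.05 in limma. The adjusted p of Nme2 and Il13 was then 0.136 and 0.153, and without the 4 arrays of doubtful label 0.0491 and 0.0688. With array weights both stayed called, at -0.59 (limma adjusted p = 0.0125) and -0.45 (adjusted p = 0.0195). In MMTV-Her2/neu and C3(1)-Tag limma called 0 bins of the region and 0 on the other autosomes, with 4 and 1 bins of the region at an unadjusted p under 0.05. With slide as a fixed block, 29 bins of the region (31.9%) were lower in MMTV-Her2/neu, against 13.2% of all bins in that setting. Without the 4 arrays of doubtful label that count was 4 (4.40%), against 9.09% of all bins. By name, 84 of the region were lower with slide as a fixed block (6.62%), against 7.60% of all names.

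The count of breakpoints depended on single probes. Segmentation of the ratios as they stood gave 211 steps of at least 0.2 within the region in 30 tumors, and 186 of them had fewer than 10 probes on one side. After probes over 3 SD from the running median of 11 neighbours were set to that distance, a setting added after the data were seen, 20 steps remained in 8 tumors, 18 of them among the 211. They were 2 in Brcap53_503, 2 in Brcap53_682, 3 in Brca_14, 2 in Brca_54, 5 in C Myc_043508, 3 in Wnt_4635, 2 in PyMt 3 and 1 in H2N64. Of 56 segments under 3 Mb with a mean of at least 0.8 in size, 8 also had a probe median of that size. The probes of Zfp672, Acyp2 and Tom1l1 departed by more than 1 from their neighbours in 23, 19 and 19 of the 45 tumors, above in some and below in others, and Acyp2 stood in several of the short segments. The noise SD of a single probe ranged from 0.16 to 0.48 between arrays, and shallow or short steps were less detectable where it was high.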

How the data were processed

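DNA of 45 mammary tumors from 8 models was hybridised against pooled spleen DNA on 2-colour Agilent 44K arrays. The labels also name normal mammary tissue for the reference. The authors deposited Feature Extraction output (9.5.1.1 in the headers, 10.7 in the submitters' processing notes, build mm8) with processed signals, intensity values already background-subtracted and dye-normalized, and for each spot the log10 ratio of Cy5 over Cy3. The authors also deposited a table of called intervals with their mean log2 ratio, used here to set the direction of the dyes and as an alternative. Columns of p-values and the tables of single models were not used. No depth exists for arrays, and the number of arrays limits the precision.

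The log10 ratios were turned to log2 as Cy3 over Cy5 and centred on each array's autosomal median. Control spots and spots flagged as outliers were left out (0 to 2.09% of the region's probes an array). Profiles were cut into segments by an own implementation of circular binary segmentation (numba 0.67.0 and numpy 2.4.6 under Python 3.11.15) at a split statistic over 6, at least 5 probes a segment and calls at 0.2 in size. Isolated probes were clipped at 3 SD from the running median of 11 probes in an added setting. Regional means were compared by exact permutation tests, two-sided, in an own implementation that went through every assignment of tumors. Medians of 1 Mb bins with at least 3 probes, and means of the probes of each gene name, entered linear models in limma (version 3.58.1, R 4.3.3), each model against the mean of the other 7, with Benjamini-Hochberg adjustment over all autosomal features and a threshold of 0.05. Names on more than 1 chromosome (56) were not tested. Of 1299 names of the region, 994 matched a RefSeq symbol of GRCm38.p6, used for names, gene order and microRNA sequences. The segmentation, the exact test and the limma fit were tested on simulated data. Shares of tumors gained or lost in a model have Clopper-Pearson 95% intervals (scipy 1.17.1), and shares of bins and gene names have none.

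Slides and scan dates were read from the files and coded by number (18 slides, 10 dates). The region, the gene lists and the tests were chosen with earlier results of these data known. Named genes were the members of the 7 lists, the genes at the breakpoints given, those in short segments of at least 0.8 in size, and the strongest probes of called bins. The second probe of the deleted Brca1 gene, and the transgenes other than Wnt1, check no label here. Fits of gene names, and of bins with slide as a fixed block, without the 4 arrays of doubtful label were added after the data were seen. Correction for GC content was not made, since no genome of this build was used here.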

Additional observations from a re-analysis of the deposited data

Results flagged for a closer look

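In 6 of 24 sets of tumors tested, 1 tumor lay apart from the rest of its model in its number of breakpoints by Dixon's test, which by chance marks about 1 set in 20 of continuous values. That rate does not apply to the last 4, in which all other tumors were tied at 0 and any tumor with a breakpoint is marked. PyMt317 had 4 breakpoints against 0 to 2 in the other MMTV-PyMT tumors. H2N53, whose genome profile is close to that of C3TAg_5RPT, had 38 against 1 to 10 in the other MMTV-Her2/neu tumors, and 0 with isolated probes clipped. With isolated probes clipped, C Myc_043508 had 5, PyMt 3 had 2, H2N64 had 1 and Wnt_4635 had 3, where every other tumor of the same model had 0.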

How the results depend on the processing

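The MMTV-PyMT difference in regional mean stayed above 0 in every setting in this direction of the dyes. It no longer passed with slide as a fixed block (0.18) or scan date as a fixed block (0.21). MMTV-Her2/neu passed over all arrays of the slides that hold it, that of H2N64 alone included (-0.22), and not within slides (-0.25, adjusted exact p = 0.0868) or scan dates (-0.12, 0.442). MMTV-Wnt1, at 0.0030, turned to -0.0040 under centring at the density peak, -0.039 under normexp, -0.0049 without C3TAg_5RPT, C3TAg_7RPT, H2N53 and H2N61, -0.014 without Wnt_4635, -0.078 on its own slides and -0.13 within slides and within scan dates, where 3 assignments were possible. MMTV-HRas turned to 0.21 within scan dates, by 1 tumor. With the dyes as labelled the differences were -0.072 in MMTV-Myc, -0.21 in MMTV-PyMT, 0.11 in MMTV-Her2/neu, 0.079 in MMTV-HRas, -0.0030 in MMTV-Wnt1, 0.091 in C3(1)-Tag, 0.018 in BRCA1-/-;p53+/- and 0.090 in p53-/-, 34 bins were lower in MMTV-PyMT, 6 tumors were gained and 3 lost.

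For bins of MMTV-PyMT, 34 by default (37.4%, against 2.53% of all bins), limma called 17 under normexp (18.7%, against 1.70%). It called 21 without the 4 arrays named above (23.1%, against 1.31%) and 6 with array weights (6.59%, against 4.03%). With slide or scan date as a fixed block, or at an adjusted p of 0.01, it called 0, in the region and among all bins. In BRCA1-/-;p53+/- it called 0 under centring at the density peak, normexp, 2 Mb bins, array weights or an adjusted p of 0.01, and 1 without those 4 arrays. With array weights it called 46 bins in MMTV-Myc and 2 in MMTV-Her2/neu (2.20% lower, against 23.4% of all bins). It called 3 in MMTV-Wnt1 in that setting (3.30% higher, against 7.53%). With slide as a fixed block it called 29 in MMTV-Her2/neu (4 without those 4 arrays). With loess it called 1 of 91 bins lower in p53-/-, a smaller share than the 3.94% of all bins.

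Breakpoints numbered 36 under normexp, 347 at a split statistic of 5, 112 with segments of at least 10 probes and 20 with isolated probes clipped, against 211. Lost tumors numbered 1 at a threshold of 0.3. With isolated probes clipped, Brca_54 was lost as well. Gained tumors numbered 7 with the deposited intervals in place of segments and 7 at an extent of 10%.

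Leaving out each tumor in turn gave regional differences of 0.17 to 0.23 in MMTV-PyMT, -0.014 to 0.017 in MMTV-Wnt1 and -0.035 to 0.0030 in BRCA1-/-;p53+/-, the latter above 0 without Brcap53_503. It gave 0 to 54 bins in MMTV-PyMT, 0 to 9 in BRCA1-/-;p53+/- and 0 to 6 in p53-/-, 173 to 211 breakpoints, 2 to 3 gained and 5 to 6 lost tumors. The causes of these changes were not tested. Of the settings tried for list entries, 51 of 92 ended the call and none changed its direction. No paired analysis was possible because tumors of different models share no animal, and their numbers were given in order. A single-probe noise SD of up to 0.48 and few tumors a model limit what can be called.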
